A study of Mus musculus with 32 samples.

Results

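The glucocorticoid receptor gene Nr3c1, the ligand-activating enzyme gene Hsd11b1 and 7 genes commonly used as readouts of the receptor (Fkbp5, Tsc22d3, Sgk1, Zbtb16, Ddit4, Mt1 and Mt2) were followed through the day in mouse brown fat. These 9 genes were chosen by symbol, as the rows of the count table whose Ensembl gene identifier maps to one of these names. All 9 were found among the 50686 genes of the table, and all 9 were among the 15505 genes with enough reads to be tested.

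Glucocorticoids are adrenal steroids whose blood level in nocturnal rodents peaks around the onset of darkness. The steroid binds the receptor in the cytoplasm, where a complex of heat-shock proteins and co-chaperones holds the receptor ready for it, and the occupied receptor moves to the nucleus and binds DNA at glucocorticoid response elements, inverted repeats of a short arm. In adipose tissue the hormone is known for its effects on fat storage, on lipolysis and on the brown phenotype. Cells also make active steroid locally, since 11β-hydroxysteroid dehydrogenase type 1, the product of Hsd11b1, turns inactive 11-dehydrocorticosterone into corticosterone.

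Interscapular brown adipose tissue (iBAT) came from male C57BL/6J mice of 10 weeks that ate chow freely, were not fasted and were killed by CO2 inhalation. The mice lived in a cycle of 12 h light and 12 h dark, and tissue was snap-frozen at 8 Zeitgeber times, every 3 h from lights on (ZT0) through lights off (ZT12) to ZT21, with 4 mice per time point. Each of the 32 mice gave 1 stranded library of total RNA, read as pairs of 100 bases. The labels give no steroid treatment, adrenalectomy or altered receptor. The hormone itself was not measured in these files.

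The libraries held 16300770 to 18254659 counted reads. The sample descriptions place ZT0, ZT3 and ZT6 on lane 2, ZT9, ZT12 and ZT15 on lane 3, and ZT18 and ZT21 on lane 4, so a difference between time points of different lanes cannot be told apart from a difference between lanes. All 8 brown adipocyte markers examined were measured, with a summed level of 3826 to 7515 CPM (counts per 1000000 reads, scaled by TMM) per library. The 10 skeletal muscle markers summed to 2.28 to 6065 CPM and exceeded 1000 CPM in 15 libraries spread over all time points. ZT9 replicate 3 held the highest macrophage marker sum, 243 CPM against at most 118 CPM in any other library. It also held the highest sums of stroma (1067 CPM), blood (1137 CPM) and lymphoid markers (28.8 CPM). Other libraries came close in stroma (1043 CPM in ZT6 replicate 2) and lymphoid markers (27.0 CPM in ZT9 replicate 1), and reached 906 CPM in blood markers (ZT6 replicate 2). In bulk tissue, fewer cells of a type and less RNA per cell cannot be told apart.

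Levels of different genes were compared as mean CPM per kilobase of annotated exon. On this scale Mt1 was highest at 53.8, followed by Hsd11b1 at 31.2, Mt2 at 26.4, Nr3c1 at 17.4, Tsc22d3 at 12.9, Ddit4 at 11.4, Sgk1 at 9.10, Zbtb16 at 5.504 and Fkbp5 at 1.70. Nr3c1 stood above 86.6% of the tested genes and Fkbp5 above 35.8%. All other levels below are CPM, which compare a gene with itself over time.

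The daily pattern was tested with a 24 h cosine, which gives an amplitude (the distance from the fitted mean to the fitted peak, in log2 CPM) and a peak time. Of the 9 genes, 8 passed the cosine test (edgeR, adjusted p under 0.05), against 36.1% of all tested genes, and Zbtb16 did not. Of the 9, 8 also differed between time points in a test that assumes no shape, against 39.8% of all tested genes, and here the exception was Hsd11b1. By JTK (P under 0.05) 8 oscillated, against 36.4% of all tested genes, again all but Zbtb16, and 6 remained past the threshold after Benjamini-Hochberg (BH) adjustment over all genes, against 27.1%. With lane as a term beside the cosine, Fkbp5, Tsc22d3, Ddit4 and Mt2 passed, 4 of 9 against 17.2% of all tested genes. The fitted peaks of the 8 genes ran from ZT6.8 to ZT20.8, and the median amplitude of all 9 was 0.43, against 0.14 over all tested genes.

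**Figure D1:**
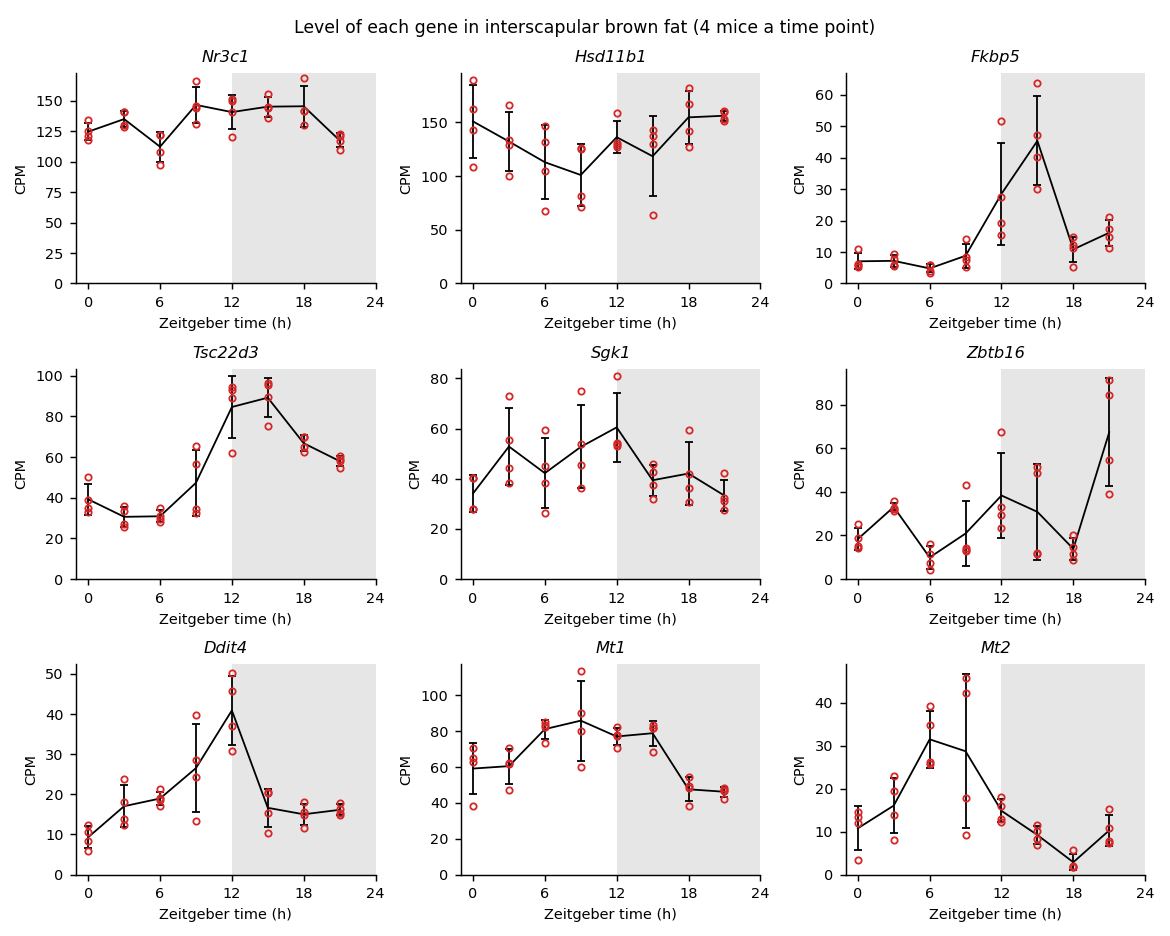
Level of each gene (CPM, vertical axes from 0) against Zeitgeber time (h), with red circles for the 4 mice of each time point, the black line for their mean and bars for the SD; grey marks the dark phase. Fkbp5 and Tsc22d3 were highest at ZT15 (45.3 and 89.2 CPM), Ddit4 at ZT12 (40.9 CPM), Mt2 at ZT6 (31.5 CPM) and Zbtb16 at ZT21 (67.4 CPM), while Nr3c1 stayed between 112 and 147 CPM.

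Nr3c1 mRNA changed little through the day. Nr3c1 (ENSMUSG00000024431, chr18:39410545-39519421 of GRCm38, minus strand, protein-coding) measured 108, 96.9, 122 and 122 CPM in the 4 mice of ZT6 (mean 112 ± 12.2 SD) and 166, 131, 144 and 146 CPM in those of ZT9 (147 ± 14.5). These 2 groups did not overlap, and the step from ZT6 to ZT9 was the only 3 h step of Nr3c1 past the test (log2 fold change 0.38 ± 0.09 SE, adjusted p = 0.0164), although it runs from lane 2 to lane 3, and 1.95% of all tested genes passed in this step. The level then stayed at 141 to 147 CPM from ZT9 to ZT18 and was 117 ± 5.70 CPM at ZT21. The fitted amplitude was 0.13 ± 0.04 with a peak at ZT13.7 ± 1.2 h (adjusted p = 0.0279), a peak-to-trough ratio of 1.20. The cosine call of Nr3c1 was lost without ZT15 replicate 2 (adjusted p = 0.0508), without the expression filter (0.0512), with the muscle marker sum as a covariate (0.0549), in the 17 libraries under 1000 CPM of muscle markers (0.462, with an amplitude of 0.07) and beside lane (0.804). Any difference between time points (adjusted p = 0.00207) was lost in those 17 libraries too (0.374). The exact JTK test gave P = 0.0394 for Nr3c1 and a BH value of 0.112, and this P was above 0.05 with libraries scaled by size alone (0.0551) and in 14 of the 32 fits that left out 1 library.

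Hsd11b1 varied more between mice than between time points. Hsd11b1 (ENSMUSG00000016194, chr1:193221634-193264075, minus strand) measured 125, 126, 70.9 and 81.2 CPM at ZT9, its lowest time point (101 ± 29.1), and 153, 160, 160 and 152 CPM at ZT21, its highest (156 ± 4.61). The mice of ZT21 lay above all mice of ZT9, but the 28 pairs of time points held none past the edgeR test for this gene and 3 at an unadjusted p under 0.05, ZT21 against ZT9 included (log2 fold change 0.63 ± 0.23, adjusted p = 0.0852). Other time points spread widely, from 63.3 to 143 CPM at ZT15 and from 67.8 to 147 CPM at ZT6. The cosine put the peak at ZT20.8 ± 1.2 h with an amplitude of 0.28 ± 0.09 (adjusted p = 0.0330). The exact JTK test gave P = 0.00448. The cosine call was lost without ZT9 replicate 3 (adjusted p = 0.0704), ZT9 replicate 4 (0.0667), ZT18 replicate 1 (0.0553) or ZT18 replicate 2 (0.0506). With the stroma marker sum as a covariate it was 0.166, and beside lane 0.391.

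Of the other genes that set access to the ligand, H6pd, whose product feeds NADPH to the Hsd11b1 enzyme, oscillated with a peak at ZT13.5 (amplitude 0.34 ± 0.04, adjusted p = 2.34e-06). H6pd was higher at ZT12 (log2 fold change 0.49 ± 0.12 against ZT0, adjusted p = 0.00411), whereas Hsd11b1 itself differed by -0.15 ± 0.23 there (adjusted p = 0.714). Abcb1a and Abcb1b, which encode efflux pumps that carry steroids among many other substrates, also passed the cosine test, with peaks at ZT11.6 and ZT13.2 (amplitudes 0.30 ± 0.06 and 0.15 ± 0.04). In all, 3 of the 4 tested genes of this list passed the cosine test (36.1% of all tested genes), 2 passed JTK (36.4%) and 1 passed the cosine beside lane (17.2%). Hsd11b2, which inactivates the hormone, had at most 3 reads in any library and was not tested. Of 7 genes of corticosteroid synthesis, Hsd3b1 and Cyp11b2 were at 0 in every library, 4 fell under the expression filter, and Star, which brings cholesterol into mitochondria, passed the cosine test at a mean of 1.79 CPM with a peak at ZT6.2 (adjusted p = 0.0251).

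Most genes of the chaperone complex were lower at the onset of darkness than at the onset of light. Of 9 chaperone and co-chaperone genes, 8 passed the cosine test (36.1% of all tested genes), all with fitted peaks between ZT19.1 and ZT22.3. By mean level each of the 9 was highest at ZT0 or ZT18. At ZT12, 8 were lower than at ZT0, against 8.15% of all tested genes lower there. The list's median log2 fold change was -1.02, against 0.00 over all tested genes. Hspa8, the constitutive Hsc70 that loads client proteins, had the largest amplitude (0.88 ± 0.12) and fell by 1.12 on the log2 scale from ZT0 to ZT12 (adjusted p = 1.49e-04). Hsp90aa1, the inducible Hsp90 that holds the receptor in its binding state, fell by 1.95 (adjusted p = 1.47e-05), and Dnaja1, an Hsp40 co-chaperone, by 1.49 (adjusted p = 1.02e-06). All 8 also passed the cosine test beside lane, which 17.2% of all tested genes did. The 5 other heat-shock genes examined were likewise lower at ZT12, among them Hsph1 (-3.06 ± 0.35, adjusted p = 9.45e-07), Hspa1b (-3.26 ± 0.51) and Hspa1a (-3.16 ± 0.50). Their summed level was highest at ZT0 (324 ± 96.0 CPM, 203 to 437 CPM) and lowest at ZT9 (56.2 ± 3.32 CPM). It was also high at ZT15 (241 ± 85.3 CPM) and lower at ZT21 (101 ± 25.2 CPM).

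The receptor's cofactors had small amplitudes. Of 10 cofactor genes, 9 differed between time points (39.8% of all tested genes) and 3 passed the cosine test (36.1%), among them Nrip1, a co-repressor of metabolic genes in fat (peak ZT9.2, amplitude 0.25 ± 0.09), and Smarca4, the ATPase of a chromatin remodeller (peak ZT19.2, amplitude 0.10 ± 0.03). The list's median amplitude was 0.10, against 0.14 over all tested genes.

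Fkbp5 had a larger ratio between its highest and lowest time points than any of the 9 genes but Mt2. Its product FKBP51 binds the receptor complex and lowers the receptor's affinity for hormone, a short feedback loop. Fkbp5 (ENSMUSG00000024222, chr17:28399094-28517527, minus strand) measured 3.40, 5.91, 4.04 and 5.79 CPM at ZT6 (mean 4.79 ± 1.26) and 63.8, 47.2, 40.3 and 30.1 CPM at ZT15 (45.3 ± 14.2). Each mouse of ZT15 lay above every mouse of ZT6, a 9.47-fold difference of the means (log2 fold change 3.24 ± 0.38, adjusted p = 1.41e-06). The muscle marker sum was also highest on average at ZT15 (2846 ± 2537 CPM) and lowest at ZT6 (361 ± 715 CPM), with wide spread, and with this sum as a covariate the cosine of Fkbp5 still passed (adjusted p = 1.28e-05). At ZT12 the mice measured 15.6, 27.3, 19.3 and 51.8 CPM, a wide spread in which replicate 4 stood highest. At ZT18, the next time point, the level was 12.1, 11.2, 5.24 and 14.8 CPM, below all mice of ZT15 (log2 fold change -2.06 ± 0.35, adjusted p = 0.00317), a step from lane 3 to lane 4 that 1.17% of all tested genes passed. It was 16.1 ± 4.15 CPM at ZT21 and fell to 7.04 ± 2.59 CPM at ZT0 (log2 fold change -1.20 ± 0.36, adjusted p = 0.0367), where 7.72% of all tested genes passed. The cosine gave an amplitude of 1.19 ± 0.19 and a peak at ZT15.3 ± 0.6 h (adjusted p = 3.06e-06), and the call held in all 32 fits that left out 1 library. It also held beside lane (0.00697), but not beside lane in the 17 libraries under 1000 CPM of muscle markers (0.389). Within lane 3, where ZT9, ZT12 and ZT15 share a lane, Fkbp5 was the only gene of the 9 past the test, which 1.78% of all tested genes passed (adjusted p = 0.0247). That call was lost without any single one of 6 libraries, namely ZT9 replicates 1, 2 and 4 (0.0663, 0.0712 and 0.0740) and ZT15 replicates 2, 3 and 4 (0.0607, 0.0755 and 0.0558). Without ZT9 replicate 3 Fkbp5, Tsc22d3 (0.0320) and Mt2 (0.0185) passed. Ddit4 passed in place of Fkbp5 without ZT9 replicate 1 (0.0448), and with replicate number as a further term (0.00868, Fkbp5 0.0921).

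The 250 bases before the annotated start of Fkbp5 (RefSeq, GRCm38.p6, chr17:28486150-28486399, minus strand, inside the Fkbp5 gene but outside annotated exons) are shown because they hold an E-box (CACGTG, in capitals), the element read by the clock proteins CLOCK and BMAL1, and no glucocorticoid response element in the same window. The E-box was in 7.15% of all 32851 promoter windows searched, each 250 bases before to 50 bases after a start site.
Fkbp5: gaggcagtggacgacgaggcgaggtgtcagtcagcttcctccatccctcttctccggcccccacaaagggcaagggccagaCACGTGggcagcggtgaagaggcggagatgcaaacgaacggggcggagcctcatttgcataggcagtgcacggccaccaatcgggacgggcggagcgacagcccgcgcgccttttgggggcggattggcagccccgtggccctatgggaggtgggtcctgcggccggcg

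Tsc22d3 was highest at the same time point as Fkbp5. It encodes GILZ, a leucine zipper protein through which glucocorticoids restrain inflammatory transcription. Tsc22d3 (ENSMUSG00000031431, chrX:140539528-140600659, minus strand) measured 27.1, 36.02, 33.6 and 25.6 CPM at ZT3 (30.6 ± 5.03) and 95.4, 96.4, 89.5 and 75.5 CPM at ZT15 (89.2 ± 9.62). The mice of ZT3 and ZT15 did not overlap, and the difference was 2.92-fold (log2 fold change 1.54 ± 0.17, adjusted p = 9.82e-07). At ZT9 the 4 mice fell into a lower and a higher pair, 32.6 and 34.5 CPM against 65.7 and 56.5 CPM, and at ZT12 replicate 1 (62.2 CPM) lay below the others (88.9 to 94.4 CPM). The difference from ZT15 to ZT18 did not pass the test (log2 fold change -0.42 ± 0.17, adjusted p = 0.239). From ZT18 to ZT21 the mice were close together, at 66.8 ± 3.82 and 58.0 ± 2.40 CPM, and the step to 39.2 ± 7.75 CPM at ZT0 passed the test (log2 fold change -0.57 ± 0.17, adjusted p = 0.0399). The cosine accounted for 82.3% of the variance between libraries, with an amplitude of 0.79 ± 0.07, a peak at ZT15.4 ± 0.3 h and an adjusted p of 7.04e-10. The exact JTK test gave P = 6.33e-10 for Tsc22d3 and 5.13e-05 for Fkbp5. The cosine of Tsc22d3 passed beside lane (6.3e-04; 0.179 in the 17 libraries with less muscle signal), while no lane on its own passed for this gene (0.146, 0.0768 and 0.103 for lanes 2, 3 and 4).

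Ddit4 had its highest mean earlier, at the onset of darkness, with a fitted peak shortly before it. Its product REDD1 restrains the growth kinase mTORC1 and responds to hypoxia and energy stress as well as to glucocorticoids. Ddit4 (ENSMUSG00000020108, chr10:59949669-59951834, minus strand) measured 5.97, 12.3, 8.34 and 10.6 CPM at ZT0 (9.30 ± 2.74) and 30.7, 50.2, 45.6 and 37.0 CPM at ZT12 (40.9 ± 8.70). The groups were far apart, with a 4.40-fold difference of the means (log2 fold change 2.13 ± 0.26, adjusted p = 2.82e-06). The means between them were 17.0 CPM at ZT3, 18.9 at ZT6 and 26.5 at ZT9. The step from ZT0 to ZT3, both on lane 2, passed the test (log2 fold change 0.87 ± 0.26, adjusted p = 0.0278), as did 13.8% of all tested genes, although the mice overlapped by a small margin (12.2 to 23.9 CPM at ZT3). The drop from ZT12 to ZT15, both on lane 3, went from 40.9 to 16.6 CPM without overlap between the mice (log2 fold change -1.30 ± 0.25, adjusted p = 0.00537; 3.04% of all tested genes passed), and from ZT15 to ZT21 the mean stayed between 15.0 and 16.6 CPM. The cosine gave a peak at ZT10.8 ± 0.7 h and an amplitude of 0.67 ± 0.12 (adjusted p = 7.78e-05; beside lane 0.0162, and 0.0717 there with the stroma marker sum as a covariate). Fitted on lane 2 alone, Ddit4 passed (adjusted p = 0.0244), but not without ZT0 replicate 1 (0.0608), ZT0 replicate 3 (0.0747) or ZT6 replicate 3 (0.05003). Of 9 other regulators of mTORC1, 4 differed between time points (39.8% of all tested genes) and 2 passed the cosine test (36.1%), both with small amplitudes: Rheb, the activating GTPase (0.10 ± 0.03, peak ZT18.0), and Tsc2, its inhibitor (0.09 ± 0.02, peak ZT10.1).

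Sgk1 was highest at the same time point as Ddit4 but with wide spread. It encodes a kinase of ion transport and cell survival named for its induction by serum and glucocorticoids. Sgk1 (ENSMUSG00000019970, chr10:21882184-21999903, plus strand) measured 27.9, 40.3, 40.4 and 27.9 CPM at ZT0 (34.1 ± 7.22) and 54.0, 81.1, 53.8 and 52.9 CPM at ZT12 (60.5 ± 13.8). The 4 mice of ZT12 lay above those of ZT0 (log2 fold change 0.83 ± 0.25, adjusted p = 0.0225), and also above those of ZT15 and ZT21. They overlapped with the mice of the other time points, where ranges were wide, such as 26.2 to 59.6 CPM at ZT6 and 30.7 to 59.5 CPM at ZT18. Of the 28 pairs of time points, 2 passed for Sgk1, ZT12 against ZT0 and ZT12 against ZT21. The cosine had an amplitude of 0.30 ± 0.10 and a peak at ZT9.6 ± 1.2 h (adjusted p = 0.0252). It was lost without ZT9 replicate 2 (0.0613), with the stroma marker sum as a covariate (0.139), in the 17 libraries with less muscle signal (0.152) and beside lane (0.274). ZT12 against ZT0 was lost without ZT12 replicate 2 (log2 fold change 0.65, adjusted p = 0.0947), ZT0 replicate 1 (0.74, 0.0735) or ZT0 replicate 4 (0.74, 0.0580), and in the 17 libraries with less muscle signal (0.65, 0.341). The test of any difference between time points (adjusted p = 0.0355) was lost without any single one of 7 libraries, up to 0.0803 without ZT12 replicate 2, with the stroma marker sum as a covariate (0.146) and in the 17 libraries with less muscle signal (0.459). The exact JTK test gave P = 0.0405 and a BH value of 0.115, and this P was above 0.05 in 19 of the 32 fits that left out 1 library.

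Sgk1 was the only one of the searched genes with a whole glucocorticoid response element, spelled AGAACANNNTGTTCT and searched on both strands, in a promoter window. Windows were found for 7 of the 9 genes, 14 windows in all and 6 of them of Sgk1, and not for Zbtb16. The chromosome that holds Nr3c1 was left out of the search and of the 32851 windows, so Nr3c1 was not searched. The exact element was in 3 of 32851 windows (0.00913%), and its single arm AGAACA in 19.0%. The upstream part of that window (RefSeq, GRCm38.p6, chr10:21993640-21993889, plus strand, inside the Sgk1 gene between annotated exons) is shown with the element, which starts 189 bases before the start site, and another arm in capitals; the first arm overlaps an E-box by 2 bases.
Sgk1: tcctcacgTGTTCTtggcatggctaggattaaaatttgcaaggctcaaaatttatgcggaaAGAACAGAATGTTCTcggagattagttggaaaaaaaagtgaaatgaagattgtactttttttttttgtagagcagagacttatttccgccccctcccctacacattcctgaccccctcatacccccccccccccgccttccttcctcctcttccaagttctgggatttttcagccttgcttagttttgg

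Zbtb16 differed between time points but did not pass the cosine test. It encodes PLZF, a zinc finger repressor. Zbtb16 (ENSMUSG00000066687, chr9:48654297-48836222, minus strand) measured 35.9, 31.3, 32.8 and 32.3 CPM at ZT3 (33.1 ± 2.01) and 4.36, 7.51, 11.4 and 16.3 CPM at ZT6 (9.89 ± 5.14), both on lane 2. At ZT18 the values were 20.3, 8.72, 11.6 and 14.8 CPM (13.8 ± 4.98) and at ZT21, on the same lane, 91.6, 54.6, 84.3 and 39.0 CPM (67.4 ± 24.8). Both pairs of time points were free of overlap. The drop from ZT3 to ZT6 did not pass the test (log2 fold change -1.74 ± 0.48, adjusted p = 0.0568), which 2.08% of all tested genes did. Between them the mice split: at ZT9 replicate 3 stood at 43.2 CPM against 12.8 to 14.3 CPM, and at ZT15 replicates 1 and 3 stood at 51.6 and 48.5 CPM against 11.3 and 12.0 CPM. The step from ZT18 to ZT21 passed the test (log2 fold change 2.28 ± 0.48, adjusted p = 0.0140; 2.06% of all tested genes passed), as did the fall from ZT21 to ZT0 (-1.88 ± 0.47, adjusted p = 0.0144). Zbtb16 differed between time points (adjusted p = 7.0e-04, at most 0.00314 without any 1 library), within lane 2 (0.0110) and within lane 4 (0.0106), but not in the 17 libraries with less muscle signal (0.0692). The cosine did not pass (0.218; beside lane 0.0553), nor did the exact JTK test. Beside lane it passed under DESeq2 (0.0350), with the stroma marker sum as a covariate (0.0463) and without any single one of 9 libraries (as low as 0.0214 without ZT12 replicate 4). Within lane 2 Zbtb16, Ddit4 and Mt2 passed, 3 of 9 against 12.6% of all tested genes, and within lane 4 Zbtb16 and Mt2, 2 of 9 against 4.02%.

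**Figure D2:**
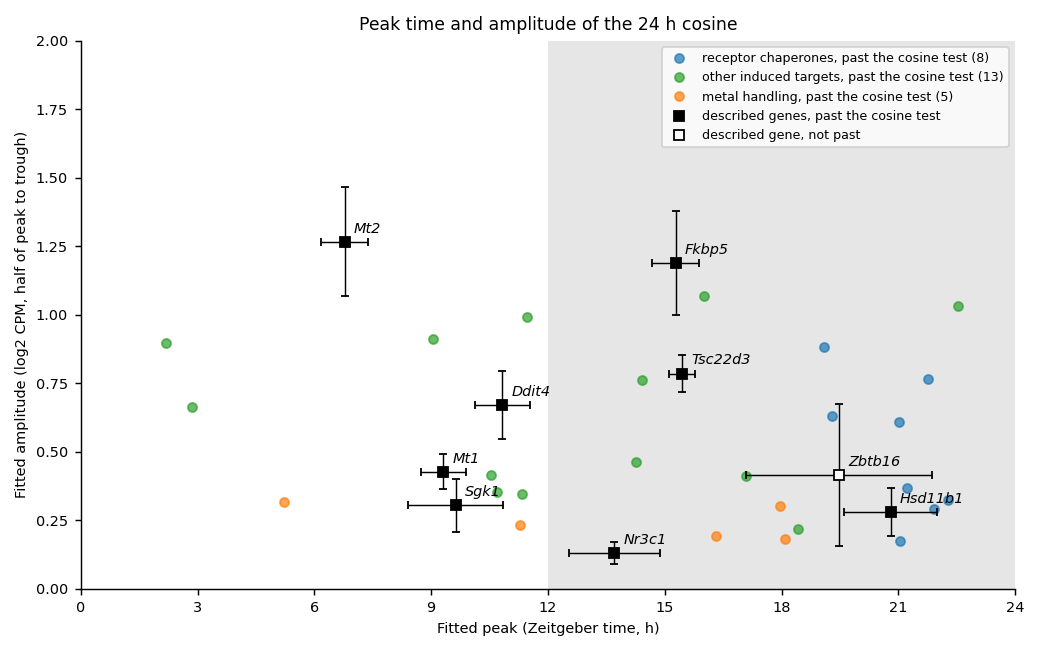
Fitted amplitude (log2 CPM, distance from fitted mean to peak) against fitted peak time (h) of the 24 h cosine, with black squares ± SE for the 9 genes (open where the cosine test was not passed) and coloured circles for genes of 3 pathway lists that passed it; grey marks the dark phase. Mt2 and Fkbp5 had the largest amplitudes of the 9 (1.27 and 1.19), with peaks at ZT6.8 and ZT15.3, and the 8 chaperone genes lay between ZT19.1 and ZT22.3.

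The metallothioneins peaked in the light phase. Mt1 and Mt2 encode small cysteine-rich proteins that bind zinc and copper, and both are induced by metals through the factor MTF1 as well as by glucocorticoids. Mt2 (ENSMUSG00000031762, chr8:94172664-94173568, plus strand) measured 39.3, 25.7, 34.8 and 26.2 CPM at ZT6 (31.5 ± 6.69) and 2.09, 1.82, 1.80 and 5.73 CPM at ZT18 (2.86 ± 1.92). The means differed 11.0-fold, the widest ratio among the 9 genes, and the mice did not overlap (log2 fold change 3.45 ± 0.48, adjusted p = 1.67e-05). ZT9 split into 42.2 and 45.7 CPM against 9.25 and 17.8 CPM, and replicate 3, the lowest, was the library with the highest macrophage marker sum. From ZT18 to ZT21, on the same lane, Mt2 rose to 10.3 ± 3.63 CPM (log2 fold change 1.84 ± 0.47, adjusted p = 0.0359). The cosine gave an amplitude of 1.27 ± 0.20 and a peak at ZT6.8 ± 0.6 h (adjusted p = 2.06e-05; beside lane 0.0016, and 0.102 there in the 17 libraries with less muscle signal). The calls of Mt2 within lane 2 (0.0405) and lane 4 (0.0370) rested on single libraries: leaving out 1 ended the former in 9 of 12 fits (up to 0.0981 without ZT6 replicate 1) and the latter in 7 of 8 (up to 0.0943 without ZT18 replicate 2).

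Mt1 (ENSMUSG00000031765, chr8:94179082-94180327, plus strand) peaked later and over a smaller range. It measured 90.1, 114, 59.8 and 80.0 CPM at ZT9 (85.9 ± 22.3) and 46.8, 47.2, 42.3 and 48.5 CPM at ZT21 (46.2 ± 2.72), a 1.86-fold difference of the means (log2 fold change 0.89 ± 0.16, adjusted p = 5.73e-04). It stayed between 77.0 and 85.9 CPM from ZT6 to ZT15 and then fell to 47.6 ± 6.66 CPM at ZT18 (log2 fold change -0.73 ± 0.16, adjusted p = 0.0198), a step that runs from lane 3 to lane 4. The cosine gave a peak at ZT9.3 ± 0.6 h and an amplitude of 0.43 ± 0.06 (adjusted p = 2.03e-05; beside lane 0.115, and 0.0109 there with the stroma marker sum as a covariate). Of the exonic bases of Mt2, 73.5% overlap the antisense gene Gm45774, which held 0 to 4 reads per library against 32 to 789 of Mt2. Of the stretches of 100 bases in Mt2 transcripts 77.6% occur in no other gene, Gm45774 holding the rest, and for the other 8 genes 100% do.

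Stroma and macrophage markers were examined over the same hours. The 6 stroma markers summed to 692 to 795 CPM on average from ZT3 to ZT12, against 456 ± 71.1 CPM at ZT0 and 485 ± 113 CPM at ZT21, and 4 of them passed the cosine test (36.1% of all tested genes) with peaks between ZT7.3 and ZT10.8, 3 differed between time points (39.8%) and 2 passed beside lane (17.2%). Of the 6 macrophage markers 3 passed the cosine test, with peaks at ZT7.3 to ZT8.5, 2 differed between time points, 1 passed JTK and 1 passed beside lane (36.1%, 39.8%, 36.4% and 17.2% of all tested genes). With the stroma marker sum as a covariate the cosines of Mt1 and Mt2 still passed (adjusted p = 7.13e-07 and 8.7e-06).

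The 250 bases before the start sites of Mt1 (chr8:94178839-94179088, plus strand, between genes apart from its last 7 bases, which the annotation used here puts in the Mt1 exon) and Mt2 (chr8:94172368-94172617, plus strand, inside the exon of the antisense gene Gm45774) are shown with the cores of the metal response element in capitals. The core was searched as TGCACNC and TGCGCNC on both strands, and either form was in 25.7% of all windows searched.
Mt1: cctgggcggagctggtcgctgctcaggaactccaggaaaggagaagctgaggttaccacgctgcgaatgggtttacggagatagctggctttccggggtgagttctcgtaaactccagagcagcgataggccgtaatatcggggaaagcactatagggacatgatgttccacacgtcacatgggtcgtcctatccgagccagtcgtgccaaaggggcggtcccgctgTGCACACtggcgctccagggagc
Mt2: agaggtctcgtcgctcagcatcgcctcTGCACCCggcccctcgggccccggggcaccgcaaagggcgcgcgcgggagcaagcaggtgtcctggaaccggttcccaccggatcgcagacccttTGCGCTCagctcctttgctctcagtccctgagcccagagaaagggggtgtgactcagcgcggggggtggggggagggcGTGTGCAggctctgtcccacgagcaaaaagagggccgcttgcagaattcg
Counting the 50 bases after the start, Mt1 held 3 cores and Mt2 held 4. At least 3 were found in 1.97% of all windows searched and at least 4 in 0.517%. Neither window held the whole glucocorticoid response element or its arm.

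The other genes of metal handling peaked at different times of day. Of 6 tested genes 5 passed the cosine test (36.1% of all tested genes) and 3 passed it beside lane (17.2%), while all 6 differed between time points (39.8%). Slc30a1, the zinc exporter of the plasma membrane, peaked at ZT5.2 (amplitude 0.32 ± 0.08), Slc39a10, a zinc importer, at ZT18.0 (0.30 ± 0.05), and Hmox1, the inducible heme oxygenase, at ZT11.3 (0.23 ± 0.07). Slc30a1 was the only gene of the list higher at ZT12 than at ZT0 (log2 fold change 0.40 ± 0.13, adjusted p = 0.0314), and 1 was lower, against 7.71% of all tested genes higher and 8.15% lower. Mt4 was at 0 in every library.

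The onset of darkness (ZT12) was compared with the onset of light (ZT0). Of all tested genes 15.9% differed. Of the 9 genes, 4 were higher at ZT12, Ddit4, Fkbp5, Tsc22d3 and Sgk1, against 7.71% of all tested genes higher there, and none was lower by edgeR, by DESeq2 or at an unadjusted p under 0.05. Besides the values of Ddit4 and Sgk1 above, Fkbp5 was higher by 2.02 ± 0.36 on the log2 scale (28.5 ± 16.3 against 7.04 ± 2.59 CPM, adjusted p = 3.18e-04) and Tsc22d3 by 1.11 ± 0.17 (84.6 ± 15.1 against 39.2 ± 7.75 CPM, adjusted p = 6.51e-05). Zbtb16 differed by 1.06 ± 0.47 (adjusted p = 0.121), Mt2 by 0.47 ± 0.43 (0.495), Mt1 by 0.38 ± 0.16 (0.0978) and Nr3c1 by 0.18 ± 0.09 (0.171). The mice of ZT0 and ZT12 were sequenced on different lanes. Sums of markers of other cells also differed between these groups. The 6 stroma markers summed to 363 to 534 CPM at ZT0 and 606 to 813 CPM at ZT12, and the 7 lymphoid markers to 8.99 to 12.6 CPM and 13.1 to 17.2 CPM, both higher at ZT12 without overlap. No single gene of these lists passed the edgeR test. At an unadjusted p under 0.05 there were 5 of 6 stroma and 0 of 7 lymphoid markers, against 4663 of 15505 tested genes. The 5 endothelial markers went the other way, with a summed level of 846 ± 86.9 CPM at ZT0 and 629 ± 25.3 CPM at ZT12 without overlap, and 2 of them, Kdr (log2 fold change -0.79 ± 0.09, adjusted p = 4.44e-07) and Emcn (-0.37 ± 0.09, 0.00521), were lower at ZT12. The part of the endothelial and lymphoid markers in the results of this comparison, and that of all 3 lists in those of the chaperone genes, was not tested. With the stroma marker sum as a covariate Ddit4, Fkbp5, Tsc22d3 and Sgk1 were still higher at ZT12 (log2 fold changes 2.12, 1.61, 0.95 and 0.86, adjusted p = 2.53e-05, 0.00318, 0.00106 and 0.0464). Mt1 reached an adjusted p of 0.0497 when the libraries were scaled by size alone and 0.0165 with the stroma marker sum as a covariate (log2 fold change 0.58), and all other calls were the same under the 3 scalings compared.

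**Figure D3:**
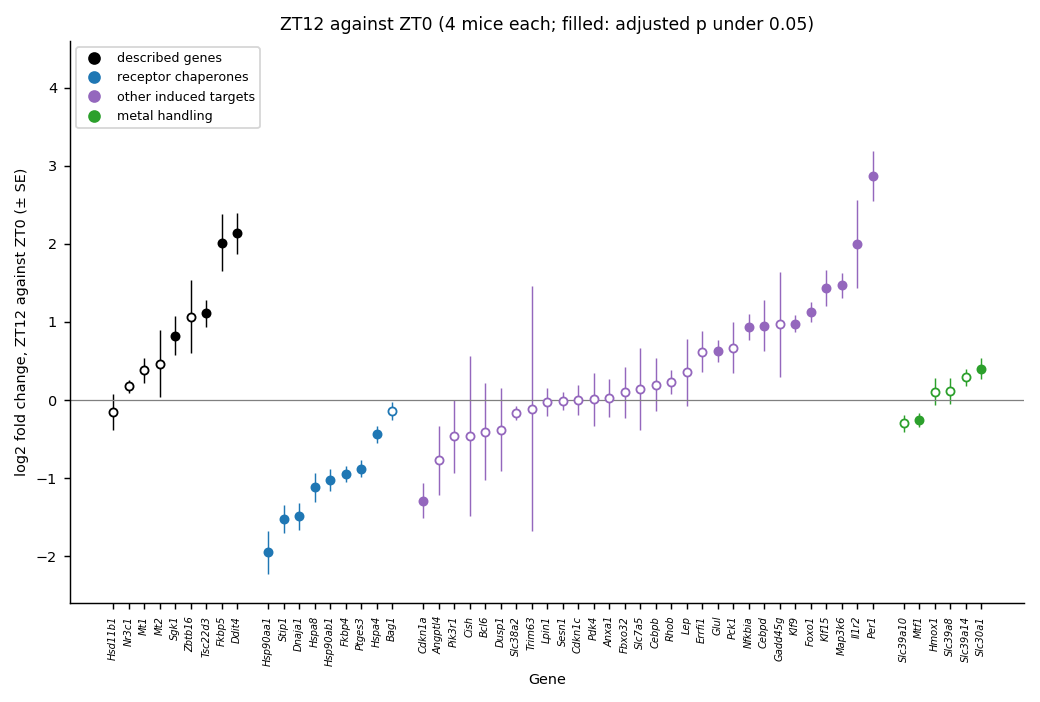
Log2 fold change of ZT12 against ZT0 (vertical axis, ± SE; 4 mice each) for the 9 genes in black and 3 pathway lists in colour, ordered within each list, with filled points past the test. Of the black points 4 are filled and all of these lie above 0, while 8 of 9 chaperone genes are filled and lie below 0.

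Other genes known to be induced by glucocorticoids in various tissues gave a mixed picture. Of 30 tested genes 13 passed the cosine test (36.1% of all tested genes), with peaks from ZT2.2 to ZT22.5, 11 passed it beside lane (17.2%) and 15 differed between time points (39.8%). At ZT12, 9 were higher and 1 was lower than at ZT0 (7.71% and 8.15% of all tested genes), and the median log2 fold change was 0.17. Lep, the adipocyte hormone leptin, had the largest amplitude (1.07 ± 0.21, peak ZT16.0). Cdkn1a, the cell cycle inhibitor p21, followed with 1.03 ± 0.13 but peaked at ZT22.5 and was the gene lower at ZT12 (log2 fold change -1.29 ± 0.23, adjusted p = 3.01e-04). Per1, a clock gene that glucocorticoids also induce, had an amplitude of 0.99 ± 0.14, a peak at ZT11.5 and a log2 fold change of 2.87 ± 0.32 (adjusted p = 7.85e-07). Of 10 inflammatory genes that the hormone represses, 4 did not reach the expression filter. Of the 6 tested, 1 passed the cosine test (36.1% of all tested genes), Vcam1, an adhesion molecule of endothelium, with a peak at ZT11.8 (0.32 ± 0.07). Beside lane 0 of the 6 passed (17.2%), and 3 differed between time points (39.8%). The clock itself gave the time reference, with peaks of Nr1d1 at ZT7.2, Dbp at ZT10.1 and Arntl at ZT23.2 and amplitudes of 1.96 ± 0.10, 2.66 ± 0.10 and 2.50 ± 0.15.

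Around the day, 10 of the 72 comparisons of a gene over a 3 h step passed (4 rises and 6 falls), against 3.97% of those over all tested genes. In the step from ZT9 to ZT12 no gene of the 9 passed the edgeR test, and none of the 15505 did, against 4 of the 9 and 1047 of all at an unadjusted p under 0.05. When the 8 time points of each gene were ordered by mean level, none of the 7 pairs of neighbours differed past the edgeR test in any of the 9 genes (5 of 63 did at an unadjusted p under 0.05), so neighbouring levels have no established order. Of all 28 pairs of time points, which 8.86% of comparisons passed over all tested genes, Tsc22d3 had 17 past the test, Fkbp5 13, Mt2 12, Ddit4 11, Mt1 10, Nr3c1 and Zbtb16 6 each, Sgk1 2 and Hsd11b1 0.

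Mice killed at the same time were then compared with each other, by correlating their departures from the time-point mean in log2 CPM over all 36 pairs of genes (32 mice, two-sided permutation within time points, BH over the 36 pairs). Mt1 and Mt2 departed together, with Pearson's r = 0.84 (permutation p = 9e-05, BH-adjusted 0.00324) and Spearman's rho of 0.81 (permutation p = 3e-05). The r was 0.73 without the 2 mice farthest from the median of Mt1 and 0.96, 0.80 and 0.67 within lanes 2, 3 and 4 (exact permutation p = 0.0021, 0.0730 and 0.165). Fkbp5 and Tsc22d3 had r = 0.64 (permutation p = 2.2e-04, BH-adjusted 0.00396), a rho of 0.66 (permutation p = 4e-04), an r of 0.70 with the farthest 2 mice left out, and 0.70, 0.72 and 0.53 within the lanes (exact permutation p = 0.0328, 0.0132 and 0.273). The departures of both genes correlated with the same sign in 8 of 8 time points.

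Zbtb16 was correlated with both. Fkbp5 and Zbtb16 had r = 0.61 (permutation p = 0.00101, BH-adjusted 0.0121), a rho of 0.60 (permutation p = 0.00145), an r of 0.60 with the farthest 2 mice left out, and 0.51, 0.71 and 0.48 within the lanes (exact permutation p = 0.136, 0.0143 and 0.262). Tsc22d3 and Zbtb16 had r = 0.49 (permutation p = 0.00337, BH-adjusted 0.0303), a rho of 0.46 (permutation p = 0.0103, BH-adjusted 0.0924), an r of 0.38 with the farthest 2 left out, and 0.42, 0.52 and 0.74 within the lanes, none of which passed (exact permutation p = 0.107, 0.0604 and 0.0712). ZT9 replicate 3 was high in all 3 genes and had the highest macrophage, stroma, blood and lymphoid marker sums of the 32 libraries, whose part in the result was not tested. Without it r was 0.55 for Fkbp5 and Zbtb16 (BH 0.0624) and 0.36 for Tsc22d3 and Zbtb16 (BH 0.117). The latter relation also missed the threshold without ZT0 replicate 3 (BH 0.0900), ZT6 replicate 1 (0.0585), ZT9 replicate 1 (0.105), ZT9 replicate 2 (0.130) or ZT15 replicate 1 (0.0763). No other pair passed. Hsd11b1 and Mt1 were nearest to the threshold, with r = 0.52 (permutation p = 0.00722, BH-adjusted 0.0520), a rho of 0.49 (permutation p = 0.0177, BH-adjusted 0.127), an r of 0.59 with the farthest 2 mice left out, and 0.45, 0.77 and -0.38 within the lanes. This pair passed in 9 of the 32 fits that left out 1 library (BH-adjusted 0.0207 to 0.173 over all 32). Scaled by library size alone, Nr3c1 and Hsd11b1 passed (r = -0.55, BH-adjusted 0.0362), against r = -0.33 (permutation p = 0.112, BH-adjusted 0.310) and a rho of -0.42 (permutation p = 0.0408, BH-adjusted 0.184) as reported here. Nr3c1 had r between -0.33 and 0.14 with the 8 other genes, -0.09 with Fkbp5 (permutation p = 0.695; rho -0.03, permutation p = 0.906), and Ddit4 had r = -0.00072 with Fkbp5 (permutation p = 0.997).

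**Figure D4:**
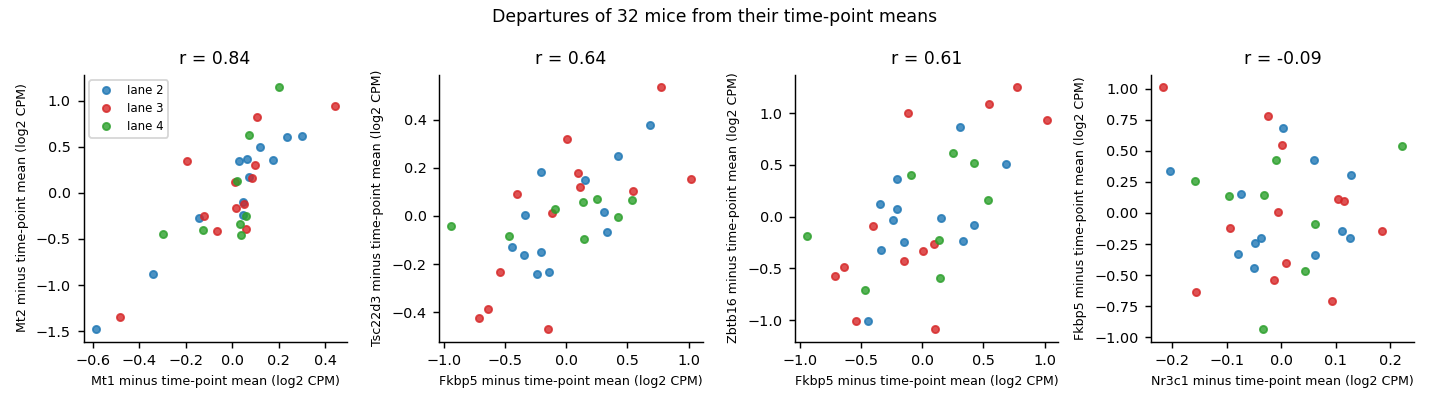
Departures of 32 mice from the mean of their time point (log2 CPM, both axes) for 4 pairs of genes, coloured by lane. Mt1 and Mt2 (r = 0.84), Fkbp5 and Tsc22d3 (r = 0.64) and Fkbp5 and Zbtb16 (r = 0.61) slope upward, whereas Nr3c1 and Fkbp5 show no slope (r = -0.09).

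The genes most like each of the 9 over the 32 libraries, by Pearson's r of log2 CPM among 13448 genes of at least 1 CPM, are given as a description, since time, lane and depth are shared by all of them. Fkbp5 was nearest to Serinc3 (0.89), Tsc22d3 (0.87) and Slc43a3 (0.85), and Tsc22d3 to Prodh (0.91), Slc43a3 (0.90) and Map3k6 (0.89). Ddit4 was nearest to Abhd16a (0.88), Per1 and Eef2 (both 0.82), Sgk1 to Csnk1g2 (0.75), Lrig3 (0.74) and Nfkbib (0.70), and Zbtb16 to Ifngr1 (0.78), Hecw2 (0.66) and Gm14026 (0.61). Mt2 was nearest to Slc27a2, Atat1 (both 0.88) and Tusc2 (0.84) and Mt1 to Gpat4 (0.85), Slc25a22 (0.84) and Vat1l (0.83). Neither metallothionein was among the 3 nearest of the other. Hsd11b1 was nearest to 2010003K11Rik (0.89), Acacb (0.85) and Scd1 (0.84), and Nr3c1 to Ivd (0.77), Car3 (0.73) and Gstz1 (0.72).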

How the data were processed

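Reads were mapped by the authors to mm10 with GSNAP and counted per gene with HTSeq-count (0.6.1), with MultiQC for quality control, per the labels and the study's methods. The deposited table holds raw counts per Ensembl gene for 32 libraries, not normalised, 16300770 to 18254659 per library. SDs are over the 4 mice of a time point, and SEs come from the fits over all 32 libraries. The 9 genes and the gene lists were chosen with earlier results of these data known.

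Counts were analysed as deposited with edgeR 4.0.16 in R 4.3.3 (quasi-likelihood F test, TMM, filterByExpr by time point, 15505 genes kept, BH over all of them, threshold 0.05). Designs were a 24 h cosine, 8 time points with all 28 contrasts, the cosine beside lane, and time points within each lane. Amplitudes and peaks were fitted to log2 CPM with a prior count of 2. JTK was implemented anew with periods of 21 and 24 h. Correlations used 100000 permutations within time points, and exact enumeration within lanes. Gene models came from GENCODE vM21 (GRCm38) and promoter windows from RefSeq (GRCm38.p6). Symbols matched 50376 of 50686 identifiers. Scripts were tested on simulated data. Alternatives were DESeq2 1.42.0, other size factors, no filter, no mitochondrially encoded genes, a replicate block, each library left out, another prior count and Spearman correlations, with marker covariates and the 17 libraries under 1000 CPM of muscle markers added after the values were seen.

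Named genes were the 9 genes, for each other list at most the 3 genes of largest amplitude past the cosine test and those at 0 in every library, and for each of the 9 the 3 genes of highest correlation; Hsd11b2 was named in addition, after its count was seen, as were Kdr and Emcn, and 1 gene that the rule names is not reported here. Marker lists of blood, lymphoid, endothelial and white fat cells were also counted (0 of 5, 2 of 7, 2 of 5 and 1 of 4 tested genes past the cosine test), as were those of brown adipocytes (2 of 8) and muscle (0 of 10), against 36.1% of all tested genes.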

Additional observations from a re-analysis of the deposited data

Results flagged for a closer look

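In 8 of the 72 groups of 4 mice (9 genes at 8 time points), 1 mouse stood so far from the other 3 that its gap to the nearest of them, as a share of the group's range, exceeded Dixon's critical value. Chance flags about 1 in 20 such groups.

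High mice were Fkbp5 at ZT0 replicate 3 (10.9 CPM against 5.33 to 6.10 CPM), Sgk1 at ZT12 replicate 2 (81.1 against 52.9 to 54.0 CPM), Zbtb16 at ZT9 replicate 3 (43.2 against 12.8 to 14.3 CPM), Mt2 at ZT18 replicate 4 (5.73 against 1.80 to 2.09 CPM) and Hsd11b1 at ZT12 replicate 4 (159 against 127 to 131 CPM). Low mice were Tsc22d3 at ZT12 replicate 1 (62.2 against 88.9 to 94.4 CPM), Hsd11b1 at ZT15 replicate 1 (63.3 against 130 to 143 CPM) and Mt1 at ZT15 replicate 1 (68.6 against 81.5 to 83.3 CPM). ZT15 replicate 1 also held the highest muscle marker sum (6065 CPM) and ZT9 replicate 3 the highest macrophage marker sum (243 CPM); their part in these values was not tested.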

How the results depend on the processing

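The counts of the 9 genes past each test stayed within 1.5 times of the reported ones under DESeq2, other size factors, no expression filter, removal of mitochondrially encoded genes, both marker covariates and the replicate block, though the calls of single genes changed, as given with each gene. In the 17 libraries under 1000 CPM of muscle markers, a choice made after seeing the data that left 1 library at some time point, 5 of 9 genes differed between time points and 1 passed the cosine beside lane, with 1564 against 6173 and 801 against 2661 of all genes. There the cosine called 2868 against 5602 genes and ZT12 against ZT0 365 against 2459, and fewer samples were in these fits. The 8 libraries of ZT0 and ZT12 alone called 1239 genes. Over the fits that left out 1 library the count of genes was 7 to 8 for the cosine and for time points, 4 to 5 beside lane, 3 to 4 for ZT12 against ZT0, 6 to 8 for JTK, 1 to 4 within lane 2, 0 to 3 within lane 3 and 1 to 2 within lane 4, and 2 to 6 pairs of genes were correlated. No call changed direction.

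Replicate numbers did not pair the mice (mean correlation of same-numbered departures -0.033, and 8 of 32 mice were most like a mouse of their own number). The replicate block gave 8 genes for the cosine and for time points, 4 beside lane and 4 for ZT12 against ZT0. Of all 15505 tested genes these fits called 5373, 5957, 2478 and 2385. With the replicate block the adjusted p was 0.0786 for Mt2 within lane 2, and within lane 3 it was 0.0921 for Fkbp5 and 0.00868 for Ddit4. The replicate block called 72 against 624 of all genes within lane 4 and 101 against 276 within lane 3. It left 4 correlated pairs, with Tsc22d3 and Zbtb16 lost (BH 0.0748) and Hsd11b1 and Mt1 gained (BH 0.0441).

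Time and lane cannot be separated across lanes, and each mouse gave 1 time point. Mt2 rested on as few as 32 reads in a library.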
